A study of Mus musculus with 8 samples.

Results

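The 9 genes described here encode transcription factors and 1 coactivator that act in the specification of B lymphocytes: Ebf1, Pax5, Foxo1, Bcl11a, Pou2af1, Bach2, Irf4, Sox4 and Mef2c. They were taken by name, 9 of the 53647 gene identifiers in the count files, and all 9 were found by symbol and passed the filter on low counts that left 16352 genes for testing. The RNA came from mouse bone marrow, from a sort for CD127 on lineage-negative cells, that is, cells without surface markers of mature blood lineages and with the interleukin 7 receptor alpha chain. The groups were Trerf1 -/- (knockout, KO; spelled Tref1 -/- in the genotype label) with 4 libraries and Trerf1 +/+ (wild type, WT) with 4 libraries. Trerf1 encodes a zinc finger transcription factor, and the labels pose a single question, what differs between KO and WT. Xist, the transcript of the inactive X chromosome, had 2 counts in KO2, and 4 and 20 counts in WT2 and WT3, against 16033 or more in each of the other 5 libraries, so the sexes were mixed, with 1 of 4 KO and 2 of 4 WT libraries at this low level. Age, strain background, the design of the allele, the antibodies of the lineage cocktail and whether each library came from a separate animal are not stated in the labels. The p-values therefore reflect how far these libraries scatter, which may be technical.

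In the marrow, lymphoid progenitors become B cells by switching on transcription factors in an order. EBF1 acts with the E proteins, with FOXO1 and with interleukin 7 signals to open B-lineage genes, and it induces PAX5, which fixes B cell identity by activating B cell genes and repressing those of other lineages. BCL11A, SOX4 and MEF2C are already active in multipotent and lymphoid-primed progenitors, whereas BACH2, IRF4 and POU2AF1 also act later, at the pre-B, activated and plasma cell stages. Several of these factors are not restricted to B cells: BCL11A, IRF4 and MEF2C are also used by dendritic cells.

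Promoter windows of the 9 genes were available from RefSeq on build GRCm38.p6, each running from 250 bases before to 50 bases after an annotated start. There were 12 windows, 2 of them for Ebf1 and 3 for Mef2c. Those of Ebf1 and Pax5 are printed because, of the genes compared, Pax5 was the one whose level followed that of Ebf1 most closely across the libraries. The window of Foxo1 is printed because it held a match to the EBF palindrome, TCCC and GGGA parted by any 2 bases. Capitals mark matches, 5′ to 3′ on the strand of the gene, to that palindrome or to the PU.1 motif GAGGAA on either strand.
Ebf1 (chr11:44617850-44618149, plus strand): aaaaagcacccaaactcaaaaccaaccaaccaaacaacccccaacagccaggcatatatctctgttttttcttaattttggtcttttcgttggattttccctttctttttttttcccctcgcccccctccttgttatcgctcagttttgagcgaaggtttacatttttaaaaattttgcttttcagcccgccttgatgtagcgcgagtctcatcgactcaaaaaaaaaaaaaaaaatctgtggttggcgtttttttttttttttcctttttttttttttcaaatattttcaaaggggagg
Ebf1 (chr11:44619978-44620277, plus strand): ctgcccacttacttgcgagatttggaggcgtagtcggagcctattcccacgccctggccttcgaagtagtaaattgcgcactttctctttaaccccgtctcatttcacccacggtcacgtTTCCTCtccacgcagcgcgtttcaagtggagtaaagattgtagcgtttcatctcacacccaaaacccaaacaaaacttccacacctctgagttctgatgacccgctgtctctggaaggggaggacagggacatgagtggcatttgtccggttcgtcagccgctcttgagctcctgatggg
Pax5 (chr4:44710645-44710944, minus strand): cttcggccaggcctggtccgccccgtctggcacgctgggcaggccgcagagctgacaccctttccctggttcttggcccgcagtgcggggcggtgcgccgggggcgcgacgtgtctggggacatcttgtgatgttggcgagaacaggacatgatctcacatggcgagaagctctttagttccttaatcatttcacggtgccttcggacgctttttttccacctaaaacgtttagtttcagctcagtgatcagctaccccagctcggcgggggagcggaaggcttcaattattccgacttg
Foxo1 (chr3:52268087-52268386, plus strand): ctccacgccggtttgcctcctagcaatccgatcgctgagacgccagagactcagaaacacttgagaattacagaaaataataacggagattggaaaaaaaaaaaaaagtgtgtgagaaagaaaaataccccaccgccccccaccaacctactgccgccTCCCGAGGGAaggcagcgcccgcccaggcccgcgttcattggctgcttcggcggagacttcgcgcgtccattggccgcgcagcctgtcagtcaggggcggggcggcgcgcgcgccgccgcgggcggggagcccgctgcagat

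The EBF palindrome was present in 1 of the 12 windows, that of Foxo1, where it started 92 bases before the annotated start, and in 0.904% of 32851 promoter windows of the same length. The PU.1 motif was present in 6 of the 12 windows and in 28.3% of all windows. In the second Ebf1 window it lay on the opposite strand, its first base 130 bases before the start. The forkhead motif TGTTTAC, the E-box CAGGTG and the octamer ATTTGCAT, searched on both strands, were in none of the 12 windows, against 3.65%, 20.2% and 1.74% of all windows. No motif searched is contained in another, and a match is a description of the letters only. The windows differed in composition: the first Ebf1 window was 36.7% G and C with 9 CpG, the second 53% with 17 CpG and the Pax5 window 59% with 23 CpG, against a median over all windows of 52.7% and 7 CpG.

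Every member was detected in every library. Total featureCounts counts ran from 32821991 to 66515540 in KO and from 31109744 to 73414626 in WT libraries. Each member had at least 404 of these counts in every library. Expected counts from RSEM summed to far less, 8537553 to 16615501 in KO and 8442705 to 19286688 in WT libraries. The floor of 404 therefore holds for the featureCounts counts only, and the cause of the difference was not tested. The targeted gene checked the labels only in part: Trerf1 was at 13.4, 12.8 and 12.1 CPM (counts scaled to library size after trimmed mean of M values, TMM, correction) in KO1 to KO3 but at 22.1 CPM in the library labelled KO4, against 29.0, 32.1, 27.1 and 22.3 CPM in WT1 to WT4. The estimated log2 fold change of Trerf1 was -0.87 ± 0.20 (SE; unadjusted p 0.00151, adjusted p 0.999). Directions that include the library labelled KO4 carry this doubt, and the counts of higher and lower estimates of the members and of the linked and marker lists were therefore also taken without it. WT4, the lowest WT library for Trerf1, lay close to the library labelled KO4. Without WT4 the members stayed at 6 higher and 3 lower estimates, but counts of some lists moved, as given below.

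No member passed the test. With p-values of the edgeR quasi-likelihood fit adjusted by Benjamini-Hochberg over all 16352 genes, 0 of the 9 members had an adjusted p under 0.05 (each 0.999), as had 0.0% of all genes. At an unadjusted p under 0.05 the members again numbered 0, against 322 of all genes (1.97%; 1.04% higher and 0.93% lower in KO). By DESeq2, and by limma-voom with weights for library quality, 0 members and 0 genes were called, and 0 members but 565 and 891 genes had an unadjusted p under 0.05. The estimates were higher in KO for 6 of the 9 members and lower for 3, with a median log2 fold change of 0.11, beside 51.7% of all genes with a higher estimate and a median of 0.01. Without the library labelled KO4 the estimates were higher for 3 members and lower for 6, with a median of -0.01, since those of Foxo1, Irf4 and Mef2c turned. The groups overlapped for every member, whereas 0.74% of all genes had every KO library above every WT library and 0.544% every KO library below. In bulk RNA of this kind, fewer cells of a type and less RNA per cell cannot be told apart.

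Ebf1, the factor that opens the B cell programme, was nearly level between the groups. The gene (ENSMUSG00000057098.15) lies on the plus strand of chromosome 11, from 44508144 to 44898918; this and the positions of the other genes are on GRCm39, as in the count files. It was at 74.2, 79.3 and 56.3 CPM in KO1, KO2 and KO3, with 84.3 CPM in the library labelled KO4, against 80.6, 75.8, 94.3 and 51.7 CPM in WT1 to WT4. KO3 and WT4 were the low libraries of their groups, and the WT libraries alone spanned the whole KO range. The means were 73.5 ± 12.2 CPM in KO and 75.6 ± 17.8 CPM in WT (SD, n = 4 each). The log2 fold change was -0.04 ± 0.18 (SE) with a 95% interval of -0.44 to 0.36, so the fit leaves room for anything between 0.740-fold and 1.28-fold. The sign turned without KO3 (0.07) or without WT3 (0.08).

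Pax5, the commitment factor induced by EBF1, was also nearly level between the groups. It (ENSMUSG00000014030.16, chromosome 4, 44524757 to 44710487, minus strand) was at 28.9, 25.1 and 18.4 CPM in KO1, KO2 and KO3, with 30.5 CPM in the library labelled KO4, against 27.1, 28.4, 29.9 and 21.3 CPM in WT1 to WT4. KO3 and WT4 were again the lowest of their groups and the ranges overlapped. The means were 25.7 ± 5.38 CPM in KO and 26.7 ± 3.75 CPM in WT (SD, n = 4 each), with a log2 fold change of -0.05 ± 0.17 (95% interval -0.43 to 0.32). Without KO3 the estimate was 0.08, and without WT3 it was 0.0022. Exons of 2 genes on the opposite strand share 125 and 636 bases with those of Pax5, 1.41% and 7.18% of its exonic length, and since the library kit does not mark strand, reads there cannot be assigned to one of the genes.

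Foxo1, which links the interleukin 7 and phosphoinositide 3-kinase signals to recombination genes, was even across KO and scattered in WT. It (ENSMUSG00000044167.7, chromosome 3, 52175757 to 52260642, plus strand) was at 16.1, 17.0 and 17.0 CPM in KO1, KO2 and KO3, with 17.5 CPM in the library labelled KO4, against 11.7, 16.5, 21.2 and 17.4 CPM in WT1 to WT4. The KO libraries lay inside the WT range, between the low WT1 and the high WT3. The means were 16.9 ± 0.596 CPM in KO and 16.7 ± 3.91 CPM in WT (SD, n = 4 each), and the log2 fold change was 0.02 ± 0.17 (95% interval -0.36 to 0.39). The estimate was -0.0017 without the library labelled KO4, -0.13 without WT1 and 0.14 without WT3. Antisense exons also overlap those of Foxo1 (7.78% of exonic length), Bach2 (5.40%) and Bcl11a (2.40%), and the other 5 members share none.

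**Figure D1:**
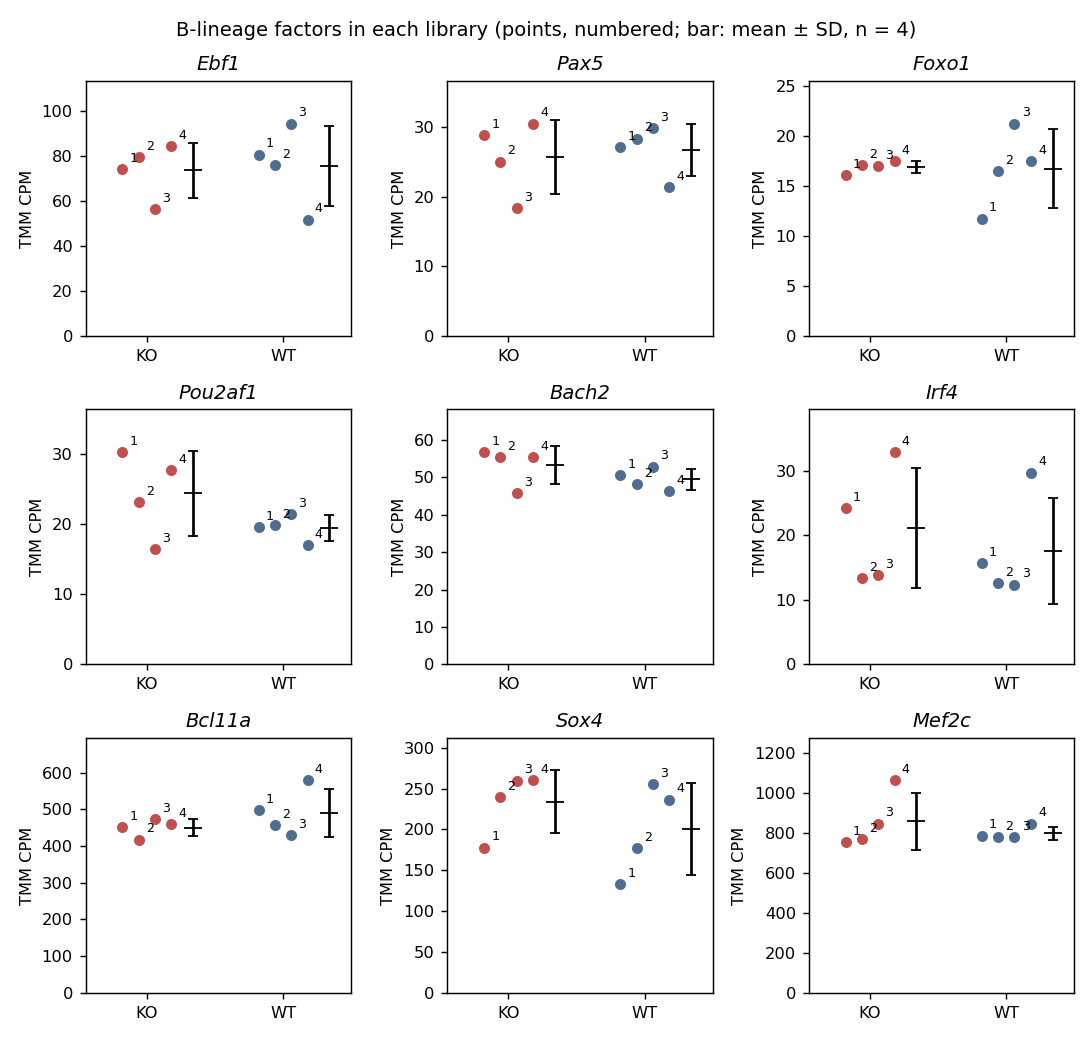
TMM-scaled CPM (vertical axis, from 0) of the 9 genes in each KO library (red, left) and WT library (blue, right); numbers name the library and bars give mean ± SD, n = 4. KO3 and WT4 are the low points of their groups for Ebf1, Pax5, Pou2af1 and Bach2, and KO and WT overlap in every panel.

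Pou2af1, a coactivator that binds octamer factors at immunoglobulin and other B cell promoters, had the largest of the 9 estimates with all libraries in the fit. It (ENSMUSG00000032053.9, chromosome 9, 51125008 to 51151380, plus strand) was at 30.3, 23.2 and 16.5 CPM in KO1, KO2 and KO3, with 27.8 CPM in the library labelled KO4, against 19.7, 19.9, 21.4 and 17.0 CPM in WT1 to WT4. KO1, KO2 and the library labelled KO4 lay above all WT libraries, but KO3 lay below all of them. The means were 24.4 ± 6.08 CPM in KO and 19.5 ± 1.82 CPM in WT (SD, n = 4 each). The log2 fold change was 0.33 ± 0.18 (95% interval -0.07 to 0.73), with an unadjusted p of 0.0967 and an adjusted p of 0.999. Without KO1 it was 0.20. Without KO3 it was 0.48 (unadjusted p 0.00880), and with RSEM expected counts 0.42 (unadjusted p 0.0432), while the adjusted p was at least 0.779 in each of 20 alternatives. Irf4 had a larger estimate than Pou2af1 without WT4 (0.64 against 0.27), as had Sox4 under limma-voom (0.31 against 0.18).

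Bach2, a repressor that holds back plasma cell and myeloid genes, varied least of the 9. It (ENSMUSG00000040270.17, chromosome 4, 32238804 to 32586108, plus strand) was at 56.8, 55.4 and 45.9 CPM in KO1, KO2 and KO3, with 55.5 CPM in the library labelled KO4, against 50.6, 48.3, 52.9 and 46.3 CPM in WT1 to WT4. KO3 lay below all other libraries, and the remaining KO libraries lay above all WT libraries. KO over WT, the log2 fold change was 0.11 ± 0.10 (95% interval -0.11 to 0.33), and without KO3 it was 0.18.

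Irf4, which acts in light chain rearrangement and in plasma and dendritic cells, varied most, over a 2.66-fold range. It (ENSMUSG00000021356.11, chromosome 13, 30933209 to 30950959, plus strand) was at 24.3, 13.4 and 13.9 CPM in KO1, KO2 and KO3, with 32.9 CPM in the library labelled KO4, against 15.7, 12.6, 12.4 and 29.7 CPM in WT1 to WT4. The library labelled KO4, WT4 and KO1 were high, and the other 5 libraries lay between 12.4 and 15.7 CPM. The log2 fold change was 0.26 ± 0.35, and its 95% interval, -0.51 to 1.03, was the widest of the 9, so a doubling lies within it. The estimate was -0.04 without the library labelled KO4, 0.64 without WT4 and 0.10 with Xist as a covariate.

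Bcl11a, a zinc finger repressor needed for lymphoid progenitors, was abundant in every library. It (ENSMUSG00000000861.16, chromosome 11, 24028056 to 24124123, plus strand) was at 450.4, 417 and 473 CPM in KO1, KO2 and KO3, with 459 CPM in the library labelled KO4, against 498, 456, 429.8 and 578 CPM in WT1 to WT4. WT4 stood highest and the other libraries were close together. The means were 449.9 ± 23.9 CPM in KO and 490.4 ± 65.0 CPM in WT (SD, n = 4 each). The log2 fold change was -0.12 ± 0.11 (95% interval -0.36 to 0.11), and without WT4 it was -0.03.

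Sox4, an HMG-box factor of early B and other progenitors, is a gene with 1 exon. It (ENSMUSG00000076431.5, chromosome 13, 29132902 to 29137696, minus strand) was at 178, 239 and 259.7 CPM in KO1, KO2 and KO3, with 260.0 CPM in the library labelled KO4, against 133, 177, 255 and 236 CPM in WT1 to WT4. KO1 and WT1 were the low libraries of their groups, which overlapped. KO over WT, the log2 fold change was 0.22 ± 0.20 (95% interval -0.21 to 0.66), and without WT1 it was 0.06.

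Mef2c, a MADS-box factor that favours lymphoid over myeloid fate in progenitors, had the highest level of the 9. It (ENSMUSG00000005583.17, chromosome 13, 83652153 to 83815199, plus strand) was at 755, 768 and 847 CPM in KO1, KO2 and KO3, with 1063 CPM in the library labelled KO4, against 787, 779, 778 and 847 CPM in WT1 to WT4. The library labelled KO4 stood above all others, and KO1 and KO2 below all WT libraries. The means were 858 ± 142 CPM in KO and 798 ± 33.1 CPM in WT (SD, n = 4 each). KO over WT, the log2 fold change was 0.11 ± 0.12 (95% interval -0.15 to 0.36), and it was -0.01 without the library labelled KO4.

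**Figure D2:**
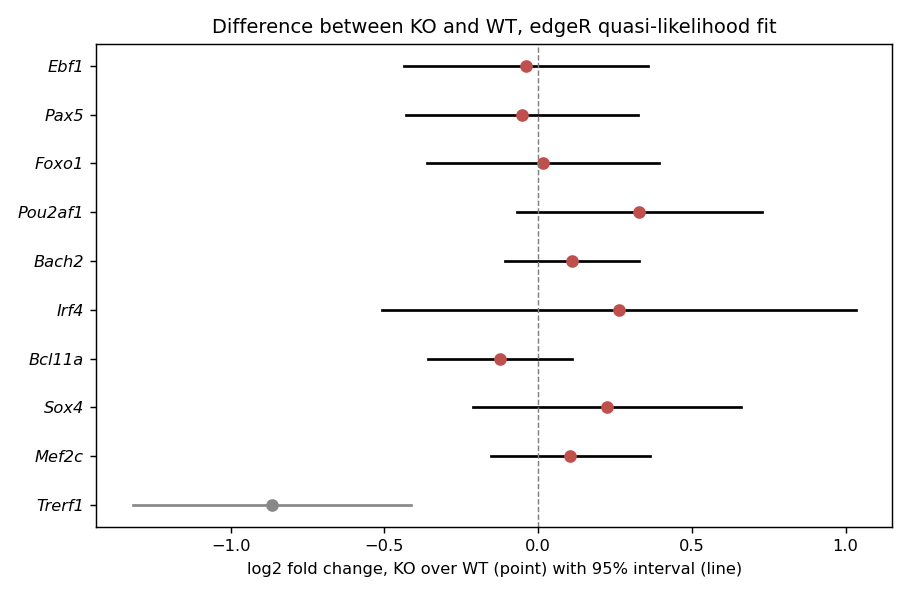
Log2 fold change of KO over WT (points) with 95% intervals (lines) from the edgeR quasi-likelihood fit for the 9 genes and, in grey, Trerf1. The interval of each of the 9 genes includes 0, the narrowest being that of Bach2 and the widest that of Irf4.

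Across libraries the members did not all move together. KO3 was the lowest KO library for 4 members (Ebf1, Pax5, Pou2af1 and Bach2), and WT4 was the lowest WT library for the same 4. WT4 was at the same time the highest WT library for Bcl11a, Irf4 and Mef2c. WT3 was the highest WT library for 6 members, among them Ebf1, Pax5 and Foxo1, and the library labelled KO4 was the highest KO library for 6, all but Pou2af1, Bach2 and Bcl11a. The median of the 9 members, each as log2 CPM minus its own mean over 8 libraries, ran from -0.16 in KO3 to 0.24 in the library labelled KO4 within KO, and from -0.08 in WT2 to 0.04 in WT3 within WT. The SD over the 8 libraries was 0.12 for Bach2, 0.29 for Ebf1, 0.26 for Pax5 and 0.58 for Irf4 on the log2 scale.

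**Figure D3:**
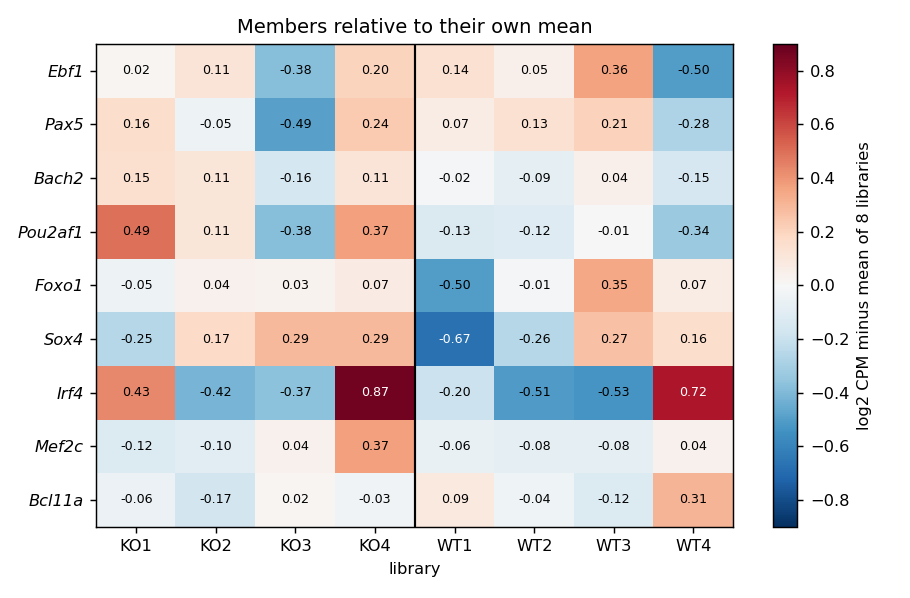
Log2 CPM of each gene minus its mean over the 8 libraries (colour and printed value; rows are genes, columns are KO libraries, then WT libraries, parted by a line). Ebf1, Pax5, Bach2 and Pou2af1 are below their means in KO3 and WT4, and Irf4 is highest in the library labelled KO4 (0.87) and WT4 (0.72).

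Of all genes compared, Pax5 had the pattern across libraries most like that of Ebf1. Likeness was measured as the root mean square difference of log2 CPM, each gene centred on its mean over 8 libraries. The genes compared had a mean of at least 10 CPM, and those with Gm or Rik symbols or without a symbol were left out. Of 8739 such genes Pax5 was the closest to Ebf1, at 0.1348, with little lead over Aig1 at 0.1352 and AU020206 at 0.1392. The other members lay farther from Ebf1, Bach2 at 0.207, Pou2af1 at 0.254 and Irf4 at 0.675, and 1.66% of those genes were closer than Bach2 and 8.67% closer than Pou2af1. For Irf4, the member with the largest spread, the closest genes were Ptprj at 0.218, Zc3h12c at 0.228 and Mfhas1 at 0.255, and the nearest member was Mef2c at 0.463. These distances are descriptions of 8 libraries that share depth and composition with every gene compared.

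The proportion between Pax5 and Pou2af1 was the 1 ratio of members whose groups did not overlap. The ratio of Pax5 to Pou2af1 counts was 0.951, 1.08 and 1.12 in KO1 to KO3 and 1.10 in the library labelled KO4, against 1.38, 1.43, 1.40 and 1.25 in WT1 to WT4. Every KO library was below every WT library, also in KO3 and WT4, where both genes were low. By RSEM expected counts the ratio was 1.04 ± 0.0709 in KO and 1.52 ± 0.156 in WT (SD, n = 4 each), again with no overlap. In TPM, where RSEM divides by an estimated transcript length, it was 0.897 ± 0.275 in KO and 1.22 ± 0.318 in WT, and the groups overlapped. This was 1 of 36 ratios among the 9 genes (2.78%), beside 0.983% of 40820130 pairs of genes with a mean of at least 10 CPM, and it was picked out after its values were seen, so it has no test.

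Levels of different genes were compared only in TPM, the length-scaled transcript measure that RSEM gives. Mef2c led with 540.0 ± 81.1 TPM in KO and 525 ± 24.5 TPM in WT, above 98.4% of tested genes by its mean over the 8 libraries. Bcl11a followed with 166 ± 4.90 TPM in KO and 181 ± 21.9 TPM in WT, and Sox4 with 56.3 ± 9.51 TPM in KO and 49.6 ± 12.1 TPM in WT (SD, n = 4 each). These 3, the factors of early progenitors, were in the same order in all 8 libraries and their ranges did not overlap. Ebf1 came next, at 24.9 ± 4.18 TPM in KO and 27.0 ± 7.08 TPM in WT, then Bach2 at 15.7 ± 2.68 TPM in KO and 15.6 ± 3.20 TPM in WT. Ebf1 was above Bach2 in 8 of 8 libraries although their ranges overlapped. Pax5, at 11.7 ± 2.78 TPM in KO and 13.2 ± 4.88 TPM in WT, and Pou2af1, at 9.82 to 16.8 TPM in KO and 8.64 to 12.3 TPM in WT, had ranges that overlapped each other and that of Bach2. Bach2 exceeded Pax5 in 5 of 8 libraries and Pax5 exceeded Pou2af1 in 3, so these neighbours had no steady order. Irf4 was at 5.96 ± 3.22 TPM in KO and 5.97 ± 1.74 TPM in WT, and Foxo1 was lowest, at 2.55 ± 0.160 TPM in KO and 2.65 ± 0.666 TPM in WT. For Pax5 the libraries ranked differently in TPM than in CPM, with KO2 (15.4 TPM) highest in KO and WT2 (18.5 TPM) highest in WT.

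Family relatives were compared with the members in the same libraries. Irf8, the dendritic and B cell relative of Irf4, was at 1558 to 2175 TPM in KO and 1678 to 2388 TPM in WT, 160 to 556 times the level of Irf4 in the same library. Bcl11b, the T and innate lymphoid relative of Bcl11a, was at 0.860 to 1.85 TPM in KO and 0.990 to 2.88 TPM in WT. Foxo3, at 7.79 to 15.3 TPM in KO and 10.7 to 15.2 TPM in WT, was above Foxo1 in every library. Mef2a ranged over 14.0 to 23.7 TPM in KO and 17.5 to 27.5 TPM in WT, and Mef2d over 18.1 to 26.8 TPM in KO and 18.5 to 21.9 TPM in WT, both far below Mef2c. Bach1 was at 6.04 ± 1.13 TPM in KO and 8.25 ± 1.78 TPM in WT. Ebf2, Ebf3, Pax2, Foxo6 and Sox11 were listed at 0 in all libraries. Of the 16 relatives 9 passed the filter, 4 with higher and 5 with lower estimates (median log2 fold change -0.07), and 0 were called.

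**Figure D4:**
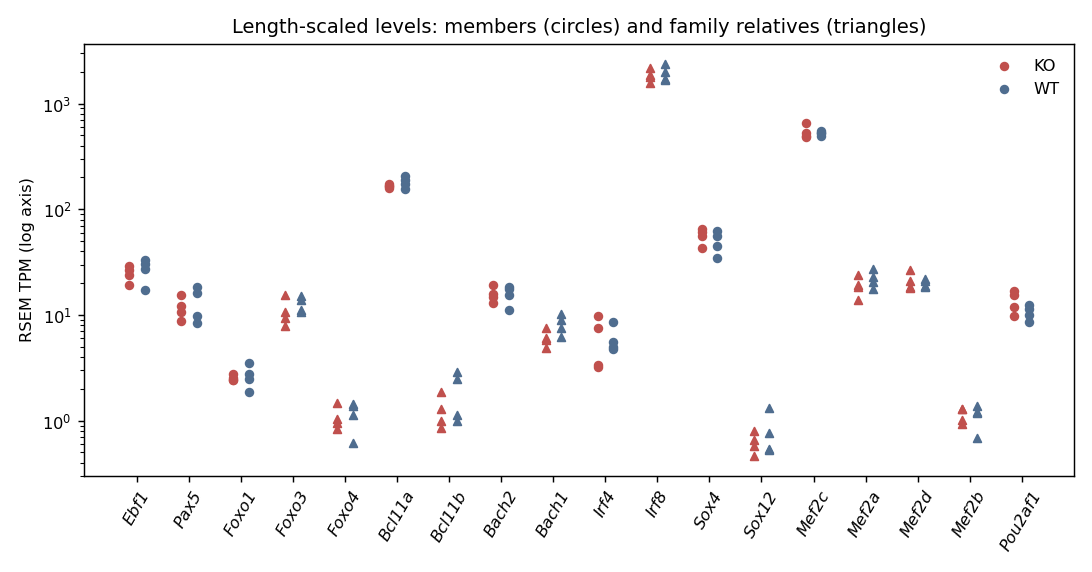
RSEM TPM on a log axis for the 9 genes (circles) and the relatives that passed the filter (triangles), each library a point, KO in red to the left of WT in blue. Mef2c, Bcl11a and Sox4 are highest among the 9 genes, and Irf8 exceeds Irf4 by 160 to 556 times.

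The genes that EBF1 and PAX5 are known to activate had mostly higher estimates in KO, while Ebf1 and Pax5 themselves were nearly level (log2 fold change -0.04 ± 0.18 and -0.05 ± 0.17). Of 16 such genes, all tested, 14 had higher and 2 lower estimates (median log2 fold change 0.20), and 0 were called, with 2 at an unadjusted p under 0.05, beside 51.7% of all genes with a higher estimate, 0.0% called and 1.97% at that p. Without the library labelled KO4 it was again 14 and 2, with a median of 0.16 and 1 at that p, Cd79a. Without WT4 it was 13 and 3, with a median of 0.34 and 6 at that p, beside 1016 of all 16723 genes tested there, and 0 were called. Cd79a, which passes on signals of the antigen receptor, had 121, 134 and 93.7 CPM in KO1, KO2 and KO3, with 129 CPM in the library labelled KO4, against 95.5, 83.6, 97.9 and 89.6 CPM in WT1 to WT4 (log2 fold change 0.38 ± 0.12, unadjusted p 0.00781, adjusted p 0.999). KO3, low in Ebf1 and Pax5, was also the only KO library within the WT range of Cd79a. In WT, however, Cd79a was lowest in WT2 and not in WT4, the WT library lowest in Ebf1 and Pax5. Lef1, a Wnt pathway factor of pro-B cells, was at 17.8, 11.1 and 19.2 CPM in KO1, KO2 and KO3, with 21.5 CPM in the library labelled KO4, against 11.7 to 12.9 CPM in WT, so that KO2 lay below all WT libraries. Vpreb3 and Vpreb1, of the surrogate light chain family, had log2 fold changes of 0.38 ± 0.23 and 0.51 ± 0.36, and Vpreb1 can share reads with its close copy Vpreb2. The groups overlapped for all 16 genes.

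Targets of FOXO1 and genes that PAX5 represses also had more higher than lower estimates. Of 16 FOXO1 targets, 12 had higher and 4 lower estimates (median log2 fold change 0.12; 11 and 5 without the library labelled KO4), with 0 called. Ccr7, a chemokine receptor, was at 88.7 ± 11.9 CPM in KO and 70.6 ± 9.26 CPM in WT (log2 fold change 0.33 ± 0.13, adjusted p 0.999), and S1pr1, Blnk and Tcf7 had log2 fold changes of 0.45 ± 0.31, 0.17 ± 0.14 and 0.20 ± 0.17. Of 13 PAX5 repressed genes, 10 had higher and 3 lower estimates (median 0.15; 11 and 2 without the library labelled KO4), with 0 called and a range from -0.90 for Prdm1, the regulator of plasma cells, to 1.03 for Jchain. Jchain, the antibody joining chain, was at 9.38 to 15.3 CPM in KO and 3.46 to 11.1 CPM in WT (log2 fold change 1.03 ± 0.32, unadjusted p 0.00843, adjusted p 0.999), and Csf1r, a myeloid growth factor receptor, at 54.9 ± 13.6 CPM in KO and 36.1 ± 12.4 CPM in WT (SD, n = 4 each). Ly6a and Ccl3 had log2 fold changes of 0.36 ± 0.20 and 0.47 ± 0.28. Genes activated and genes repressed by PAX5 were thus on the same side of 0 by their medians.

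Factors upstream of the members or bound with them leaned the other way. Of 18 such genes, 4 had higher and 14 lower estimates (median log2 fold change -0.10; again 4 and 14 without the library labelled KO4), and 0 were called or had an unadjusted p under 0.05. Ikzf3, an Ikaros family factor of B cells, was at 22.2 ± 5.92 CPM in KO and 30.2 ± 12.8 CPM in WT (log2 fold change -0.44 ± 0.29). Pou2f1 and Pou2f2, the octamer factors that POU2AF1 binds, had log2 fold changes of -0.21 ± 0.15 and -0.18 ± 0.13, and Lmo2, an adaptor of stem cell factor complexes, -0.22 ± 0.22. The lists were assembled from general knowledge, but with earlier results of these data known, so they are not independent of the data. Nothing is called particular to them from these counts. Some lists share genes, so their counts are not separate observations. Blnk is among both the EBF1 and PAX5 activated genes and the FOXO1 targets. Of the PAX5 repressed genes, Jchain is also a plasma cell marker below, and Csf1r and Ccr2 are monocyte markers.

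**Figure D5:**
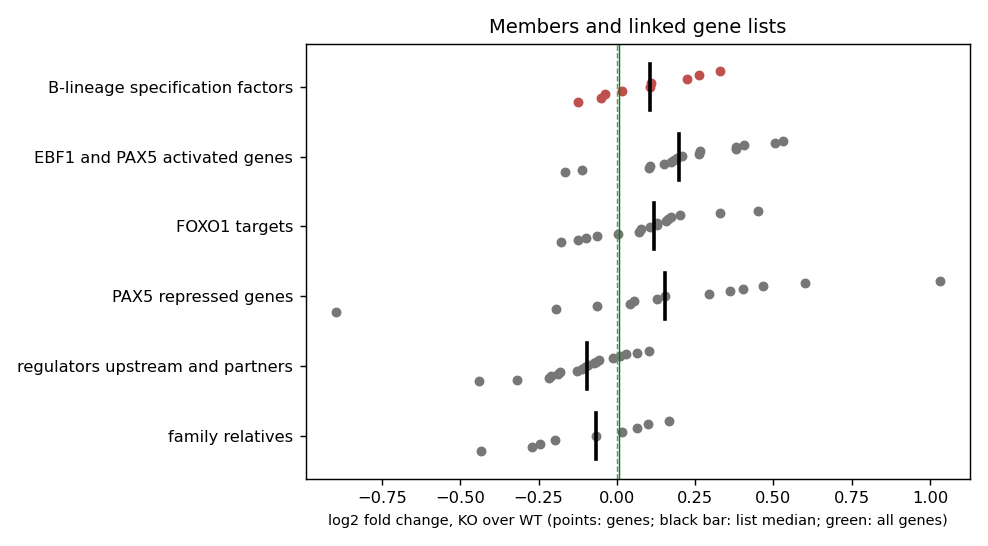
Log2 fold change of KO over WT (horizontal axis) for each tested gene (points) of the 9 factors and of 5 linked lists, with the list median (black bar) and the median of all genes tested (green line, 0.01). The medians run from -0.10 for upstream regulators and partners to 0.20 for EBF1 and PAX5 activated genes.

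Marker genes were summed for cell types that marrow holds, among them mature B, T, myeloid and erythroid cells, which a lineage-negative gate is meant to remove. Common lymphoid progenitor markers, 10 of 10 detected with a summed level of 6804 to 10652 CPM in KO and 6846 to 8456 CPM in WT, were present in every library. Of these markers 6 had higher estimates in KO, 8 without the library labelled KO4 and 3 without WT4. Markers of plasmacytoid dendritic cells, which share Bcl11a, Irf4 and Mef2c with the B lineage, were all detected too, with Siglech at 1120.0 to 1724 CPM in KO and 969 to 2413 CPM in WT. Their sum was 3669 to 4646 CPM in KO and 3369 to 6103 CPM in WT, the highest in WT4, the WT library in which Bcl11a, Irf4 and Mef2c were highest and Ebf1 and Pax5 lowest. Within KO the sum was highest in KO1 (4646 CPM), where Mef2c was lowest and neither Bcl11a nor Irf4 highest. The library labelled KO4, the highest KO library for Irf4 and Mef2c, was close to it at 4565 CPM. Estimates were higher in KO for 2 of these 8 markers, for 3 without the library labelled KO4 and for 6 without WT4. Mature B cell markers summed to 4228 to 4533 CPM in KO and 3345 to 5041 CPM in WT. Of 11 such markers 10 passed the filter, all 10 with higher estimates in KO (9 without the library labelled KO4). Most of this sum was Ighm, with 117286 to 261791 counts in KO and 103426 to 307992 in WT. Fcer2a, in the same list, had 14 to 122 counts in KO and 29 to 106 in WT. Monocyte and macrophage markers summed to 2394 to 3310.2 CPM in KO and 1752 to 3487 CPM in WT, with 8 of 8 estimates higher (6 without the library labelled KO4), and Cd14 at 0 in 2 libraries. Plasma cell markers summed to 894 to 1048 CPM in KO and 709 to 1268 CPM in WT, and T cell markers to 249 to 473 CPM in KO and 265 to 346 CPM in WT, with 9 of 11 estimates higher (median log2 fold change 0.34, 2 at an unadjusted p under 0.05; 8 of 11 without the library labelled KO4). Stem and multipotent progenitor markers summed to 603 to 698 CPM in KO and 515 to 634 CPM in WT, with 7 of 8 estimates higher (6 without the library labelled KO4). Markers of group 2 innate lymphoid cells summed to 185 to 373 CPM in KO and 285 to 576 CPM in WT, with 8 of 9 estimates lower, and erythroid markers to 36.5 to 214 CPM in KO and 41.7 to 566 CPM in WT, with 8 of 8 lower. Neutrophil markers summed to 161 to 327 CPM in KO and 183 to 272 CPM in WT, and all 7 of 9 that passed the filter had higher estimates, with a median log2 fold change of 1.33, the largest of the lists (6 of 7 and 0.92 without the library labelled KO4). The median was 0.43 with the replicate block and 0.54 with Xist as a covariate. Some of these estimates rested largely on 1 library. Ngp had 814 counts in KO1, 2, 8 and 26 in KO2, KO3 and the library labelled KO4, and 7 to 220 in WT. Elane had 1128 counts in the library labelled KO4, 46, 4 and 38 in KO1 to KO3, and 6 to 329 in WT. Summed levels were, for conventional dendritic cell markers, 1230.2 to 1570.2 CPM in KO and 1128 to 1528 CPM in WT, and, for natural killer cell markers, 43.8 to 83.0 CPM in KO and 36.0 to 73.3 CPM in WT. At an unadjusted p under 0.05 in the edgeR fit, the plasma cell, monocyte and macrophage, stem and group 2 innate lymphoid lists held 2 genes each, as did the T cell list. The mature B cell and neutrophil lists held 1 each, beside 1.97% of all genes at that p and 51.7% with a higher estimate. Some other sums also came mostly from a few abundant genes. These were Mpeg1 for monocytes and macrophages, Xbp1 and Sdc1 for plasma cells, and Mpo for neutrophils. The sums are therefore not measures of how many cells of a type were present. The part of these cell types in the members' values was not tested.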

How the data were processed

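RNA was sequenced from 8 libraries of sorted mouse marrow cells, grouped as KO or WT by title and genotype label. Per the labels' protocols, libraries were made from 200 ng of RNA with a kit for single cells or low input, which does not mark strand. The authors deposited raw counts per gene, made with featureCounts 1.6.4 with a GRCm39 annotation per the file headers (no strand or multi-mapping option is shown). The authors also deposited expected counts and TPM from RSEM 1.3.1. STAR 2.6.0a, Picard 2.19 and build mm10 come from the submitters' processing notes. Of 53647 identifiers, 52093 were matched to a symbol.

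The fit of these counts used edgeR 4.0.16 in R 4.3.3 on all 8 libraries: filterByExpr, TMM scaling, quasi-likelihood F test without covariate, Benjamini-Hochberg adjustment over all genes, threshold 0.05. SE is the size of the log2 fold change divided by the square root of F, and 95% intervals use that SE. Log2 CPM used a prior count of 3. Expected counts were rounded to whole numbers for the test. The test was checked on simulated data.

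The members and lists were chosen with earlier results of these data known. Named were Trerf1, all members, up to 4 genes with the smallest p of each linked list, family relatives and the 3 genes closest to Ebf1 and to Irf4; other genes were named after their values were seen. Same-numbered KO and WT libraries had correlations of their deviations of 0.36, 0.31, -0.03 and 0.12, so the numbers were not taken to pair them. Alternatives used other scaling, filters, DESeq2 1.42.0, limma 3.58.1, expected counts, covariates and fewer libraries. Counts per list under alternatives, among them without the library labelled KO4 and without WT4, were added after the data were seen.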

Additional observations from a re-analysis of the deposited data

Results flagged for a closer look

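Among 20 combinations of a gene (the 9 members and Trerf1) and a group, 3 held a library whose gap to its nearest neighbour exceeded the 95% critical value of Dixon for its group of 4, a gap that chance gives in about 1 of 20 groups. Bach2 in KO3 was at 45.9 CPM, with the other KO libraries between 55.4 and 56.8 CPM. Mef2c in WT4 was at 847 CPM, with the other WT libraries between 778 and 787 CPM. Trerf1 in the library labelled KO4 was at 22.1 CPM, with the other KO libraries between 12.1 and 13.4 CPM.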

How the results depend on the processing

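Each of the 9 members was refitted under 20 alternatives, and in 168 of the 180 combinations the estimate kept its direction. The alternatives used the same 8 libraries or most of them, so the combinations are not separate checks. The 12 that turned, 1 of them for Irf4 and 11 for Ebf1, Pax5, Foxo1 and Mef2c, passed no threshold. Bcl11a, Pou2af1, Bach2 and Sox4 never turned. The Foxo1 log2 fold change was -0.018 with library size alone, and -0.0027 with RSEM expected counts and -0.0017 with protein-coding genes only, and that of Ebf1 was 0.019 with Xist as covariate. With 1 library left out, the log2 fold change ran from -0.18 to 0.081 for Ebf1, -0.15 to 0.078 for Pax5, -0.13 to 0.14 for Foxo1, -0.036 to 0.64 for Irf4 and -0.014 to 0.16 for Mef2c. The cause was not tested. No member was called under any alternative, the smallest adjusted p of a member being 0.630 (Ebf1, WT4 and KO4 left out). Over all genes 0 were called in every alternative except with WT4 and KO4 left out, where 12 were called, Trerf1 among them (log2 fold change -1.20, adjusted p 0.0473) and no member. With 1 library left out 0 genes were called, and 168 to 1016 had an unadjusted p under 0.05 (1016 without WT4, 978 without the library labelled KO4). In the 5 shallower libraries (WT1, WT3 and KO1 to KO3) the estimates were -0.32 for Ebf1, -0.24 for Pax5 and 0.18 for Pou2af1; the 3 deeper libraries hold 1 KO library and were not fitted alone. With the replicate block 0 genes and 0 members were called, 634 genes had an unadjusted p under 0.05, and Sox4 was at 0.25 (unadjusted p 0.0264, adjusted p 0.936) and Irf4 at 0.26 (unadjusted p 0.0828). KO exceeded WT in 4 of 4 numbered pairs for Sox4 and Irf4, and in 3 for Foxo1, Pou2af1 and Bach2. It did so in 2 pairs for Ebf1, Pax5 and Mef2c, and in 1 for Bcl11a. These counts have no share over all genes beside them, and the numbers were not taken to pair the libraries. KO1 and KO2 deviated most like the WT library of their own number, and KO3 and the library labelled KO4 did not.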
